A study of Homo sapiens with 8 samples.

Results

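The mRNAs of DEAD (DDX) and DEAH (DHX) box RNA helicases were followed in neuroblastoma cells with and without silencing of TRMT6. The helicase genes were taken as every gene whose symbol begins with DDX or DHX and a number in a table of N1-methyladenosine (m1A) positions. There were 24 such genes among 4945 genes in the table, 18 DDX and 6 DHX. They held 63 of 9962 listed single-base positions. 1 position was assigned to both DDX19A and DDX19B, which gave 64 records of a position and a gene, 45 DDX and 19 DHX, out of 10574. The RefSeq gene table of GRCh38.p14 holds 54 protein-coding genes with such names, 38 DDX and 16 DHX. Of these, 30 had no listed position here, among them DDX5, DDX17 and DHX15. No pseudogene or antisense RNA with a matching name was listed.

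DEAD and DEAH box proteins are helicases that use ATP to open RNA duplexes or to strip proteins from RNA. Both families are named from a short acidic motif in the helicase core. DEAD box proteins mostly clamp and bend short duplexes at a fixed place, while DEAH box proteins move along a strand and are often switched on by partners that carry a G-patch domain. They work in splicing, ribosome assembly, mRNA export, translation and mRNA decay. The m1A mark blocks Watson-Crick pairing of the base that carries it, so reverse transcriptase tends to stop or misread there.

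The neuroblastoma line is uncertain, since the titles name SK-N-BE while source and cell line fields name SK-N-AS. Controls carried the label "control" with no further detail, and the other cells received small interfering RNA against TRMT6, the non-catalytic subunit of the m1A enzyme of tRNA. Polyadenylated RNA was fragmented and immunoprecipitated with an m1A antibody, and each condition had 2 libraries, called here control 1 and 2 and siTRMT6 1 and 2. Whether replicates came from separate cultures is not stated, so p-values rest on how far these libraries differ among themselves, and that spread may be technical. The labels give no dose, duration or sequence of the silencing RNA.

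TRMT6 had no listed position, so its silencing could not be followed. The column names do not say whether reads came from immunoprecipitated or input RNA, and they were taken as m1A reads because the table lists m1A sites. Input reads were not analysed here, so a change of methylation, of RNA per cell and of the number of cells with the transcript cannot be told apart. The table kept only positions that had passed the authors' test on pooled reads, and a deposited 0 could stand for absent reads or for an absent call. Reads at listed positions ran from 8655 in control 1 to 46007 in control 2, with 40771 in siTRMT6 1 and 13812 in siTRMT6 2. These totals are not the depth of the libraries. Positions are given in hg38 counting from 1.

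The base under a listed position could be read where the position fell inside a RefSeq promoter window, which spans the bases around a gene's start. Of the 9962 positions, 511 did so (5.13%), and 2 of these belonged to helicase genes, DDX51 and DHX36. Positions in 2 genes of the helicase partner lists were added for comparison. ZGPAT encodes a G-patch protein, and EIF4G2 encodes a scaffold that binds the DEAD box protein EIF4A. The 4 stretches are given 5′ to 3′ on the strand of the gene, with the listed base in capitals.
DDX51, minus strand, coding sequence, chr12:132144244-132144272: tacccgggccccgaTgcggcagctgcggc
DHX36, minus strand, 5′ UTR, chr3:154324438-154324465: gccatttccagcggTtgctggttctgac
EIF4G2, minus strand, 5′ UTR, chr11:10809023-10809051: cctgcgcggattggTggcagacggcaacc
ZGPAT, plus strand, 5′ UTR, chr20:63707461-63707489: gccccgcctgggccAcggcaccctcgagc

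The listed base was T in DDX51, DHX36 and EIF4G2 and A in ZGPAT. On the plus strand of the genome, the base was A at each of the 511 positions that could be read: 127 in genes of the plus strand, 341 in genes of the minus strand and 43 listed for genes on both. The 341 positions of minus-strand genes therefore fell on a uridine of the annotated RNA, not on an adenosine. With the listed coordinate read as counting from 1, the base was A at 36 of 508 positions, which settled the counting. The bases of the other helicase positions were not read here. By strand, 54 helicase records lay in 16 genes of the plus strand and 10 in 8 genes of the minus strand. The minus-strand genes were DDX6, DDX23, DDX24, DDX39A, DDX51, DDX54, DDX56 and DHX36, and their results below carry this limit. Minus-strand records made up 15.6% of the helicase records and 26.6% of all records.

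Helicase positions were sparse in every library. Each of the 64 records had reads in 1 library except 1 record of DDX11, which had reads in both siTRMT6 libraries, and none had reads in both conditions. The whole table was alike: over all genes 10428 of 10574 records had reads in 1 library, and 14 had reads in both conditions. Counts above 0 ran from 5 to 24, with a median of 9 reads per record, the same as the median over all genes. The median was 10 in DDX and 7 in DHX. The helicase positions with reads numbered 4 in control 1, 23 in control 2, 22 in siTRMT6 1 and 15 in siTRMT6 2. The last was 23.8% of the helicase positions, while siTRMT6 2 had reads at 14.2% of all positions.

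Both families lay mainly in coding sequence. In DDX genes 34 of 45 records were coding in every listed transcript (75.6%), and in DHX genes 16 of 19 (84.2%), against 58.9% over all genes. Of all records 5.89% lay only in non-coding RNA, against 0% of helicase records, which lowers the other shares over all genes. The 3′ UTR held 6 DDX records and 2 DHX records (12.5% together, against 20.6% of all). The 5′ UTR held 1 record in each family, DDX6 and DHX36 (3.13% together, against 10.8%). In 4 DDX records, of DDX11, DDX19B and DDX42, the region differed between transcripts. Records of 1 gene share a transcript and a library, so these shares were not tested.

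Set against the reads of each library, DDX genes had 31.2 reads per 10000 listed reads in control 1, 37.8 in control 2, 44.6 in siTRMT6 1 and 57.9 in siTRMT6 2. On this scale both siTRMT6 libraries lay above both controls, whereas in reads as deposited (27, 174, 182 and 80) the conditions overlapped. DHX genes had 24.3, 13.5, 12.5 and 32.6 reads per 10000 in the same order. Here siTRMT6 1 was the lowest library and siTRMT6 2 the highest, so the conditions overlapped. Summed over a condition's libraries, the log2 ratio of siTRMT6 to control reads was 0.38 in DDX (262 against 201 reads) and 0.21 in DHX (96 against 83). Over all genes the value was 0.0032.

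**Figure D1:**
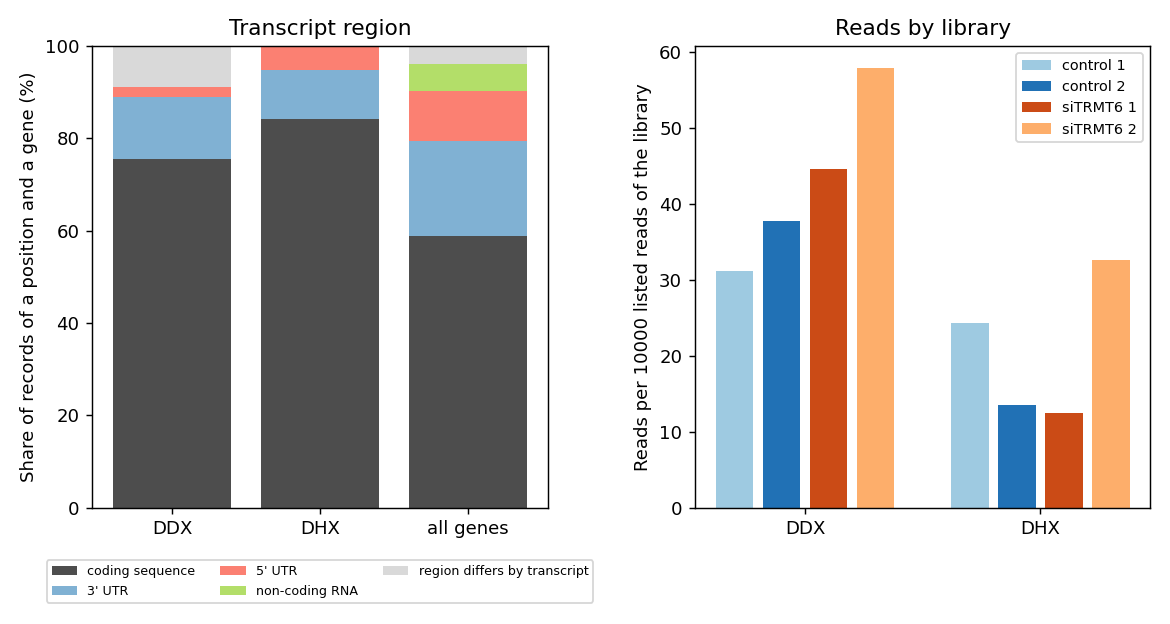
Left, share of records of a position and a gene by transcript region (%, y axis) in DDX genes, DHX genes and all genes, with a separate colour where the region differs between transcripts. Right, reads of DDX and DHX genes per 10000 listed reads (y axis), 1 bar per library. Coding sequence takes 75.6% of the DDX bar and 84.2% of the DHX bar, and siTRMT6 2 has the tallest bar in both families.

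The comparison of siTRMT6 with control cells asked where m1A reads on these mRNAs differed after silencing. In the authors' deposited table, 36 of the 64 helicase records were higher in siTRMT6 cells and 28 lower, all at an adjusted p below 0.05. Over all genes 49.7 percent of records were called higher and 50.2 percent lower at that threshold, because the table holds almost nothing else (49.6 percent and 50.4 percent when each position is counted once). DDX records were 26 higher and 19 lower, and DHX records 10 higher and 9 lower. Without siTRMT6 1, 10 DDX and 5 DHX records had siTRMT6 reads, and without siTRMT6 2, 17 and 5. The log2 values of the authors' deposited table ran from -5.77 to -3.51 for the lower helicase records and from 3.40 to 5.14 for the higher ones. These values set reads against a listed 0 and pool the replicates. They carry no measure of the spread between libraries.

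With the 4 libraries tested as replicates, no helicase was called. In edgeR's quasi-likelihood test over positions, 34 positions of the whole table had enough reads for testing and 22 were called (64.7 percent). No helicase position passed that filter on low counts, so none was tested. Without the filter edgeR called 0 of all 9962 positions (0 at an unadjusted p under 0.05), the 63 helicase positions included (lowest adjusted p = 0.519). DESeq2 likewise called 0 of 9962 (0 unadjusted; lowest adjusted p of a helicase position = 0.443). With reads summed per gene, edgeR called 0 of 975 genes (0 percent), with 128 at an unadjusted p under 0.05. Of the 24 helicase genes 6 passed the filter: DDX11, DDX21, DDX42, DDX46, DHX30 and DHX38. None reached an unadjusted p under 0.05, and edgeR's adjusted p was 0.9997 for each. DESeq2 on all 4945 gene sums gave 0 calls (25 unadjusted), and among the 24 helicases 0 had an unadjusted p under 0.05 (lowest adjusted p = 0.812). The common dispersion of the gene sums was 2.59, so the listed counts of 1 condition's libraries differed widely. Of the 4945 genes, 2669 had reads in 1 library only. Since a deposited 0 could stand for an absent call, how far the libraries themselves differed was not tested.

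Helicases of the spliceosome had the most reads. The 5 genes held 18 records, 12 higher and 6 lower, with 79 control and 130 siTRMT6 reads. Over all genes 49.7 percent of records were higher. DHX38 alone held 31 of these control reads and 54 of these siTRMT6 reads. The grouping by role was made after seeing the values, so its counts were not tested. DHX38, the human PRP16 that remodels the spliceosome for the second step of splicing, had 6 positions on chromosome 16. Its summed reads were 21 in control 1, 10 in control 2, 29 in siTRMT6 1 and 25 in siTRMT6 2. Both siTRMT6 libraries were above both controls in reads as deposited, as in 5.72 percent of all genes. Per 10000 listed reads the values were 24.3, 2.17, 7.11 and 18.1, and the conditions overlapped, with control 1 the highest. The log2 of siTRMT6 over control reads was 0.80 in summed reads and -0.068 with each library set against its listed total. The edgeR log2, which also takes library size into account, was 0.80 (unadjusted p = 0.591).

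The strongest DHX38 positions lay close together in coding sequence. Control 1 had 21 reads at 72101587, siTRMT6 2 had 14 reads 13 nt away at 72101574, and siTRMT6 1 had 20 reads at 72103107. The last lies past an intron, 59 nt from the control position along the mRNA. In the 3′ UTR, control 2 had 10 reads at 72112774 and siTRMT6 1 had 9 at 72112759. Both of these bases were also listed for PMFBP1 on the other strand, so the gene they come from is uncertain. A further position at 72096366 had 11 reads in siTRMT6 2. Reads of opposite conditions thus lay next to each other in 2 places listed for DHX38, the uncertain 3′ UTR bases among them.

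DDX46, the human PRP5 that helps the U2 particle bind the branch site, had 5 coding positions on chromosome 5. Its reads were 0 in control 1, 12 in control 2, 21 in siTRMT6 1 and 16 in siTRMT6 2. Both siTRMT6 libraries were above both controls, also per 10000 listed reads (0, 2.61, 5.15 and 11.6), as in 8.23 percent of all genes on that scale. The log2 was 1.62 in summed reads and 2.68 against the listed totals. The edgeR log2 was 2.15 (unadjusted p = 0.412, adjusted p = 0.9997), so edgeR did not call the difference with these 4 libraries. The control reads all came from 134773834, with 8 siTRMT6 2 reads at 134773811, a distance of 23 nt. SiTRMT6 1 had 9 reads at 134764073 and 12 at 134770963, and siTRMT6 2 had 8 at 134777652. The last 4 of the 5 positions lie within 281 nt of mRNA, although the gene spreads them over 6689 nt of chromosome.

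DDX42, a helicase associated with the SF3b part of the U2 particle, had the largest single count among the helicases. Control 2 had 24 reads at 63818321 of chromosome 17, and siTRMT6 2 had 14 reads at 63818279, a distance of 42 nt. Both are coding in some transcripts and 3′ UTR in others. In all, DDX42 had 5, 24, 0 and 21 reads in control 1, control 2, siTRMT6 1 and siTRMT6 2, and the conditions overlapped. The log2 of summed reads was -0.47, but 0.47 against the listed totals. Control 1 had its 5 reads at 63787132, and siTRMT6 2 had 7 at 63808889.

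The other spliceosomal helicases had few reads. DHX8, the human PRP22 that releases the spliced mRNA, had 7 control 2 reads at 43507108 and 7 siTRMT6 2 reads at 43492897 of chromosome 17, which leaves the summed reads equal. Against the listed totals the log2 was 1.74. DDX23, the human PRP28 of the U5 particle, had 11 reads in siTRMT6 1 at 48830338 of chromosome 12, in its 3′ UTR, and none listed elsewhere.

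Nucleolar helicases, which assemble ribosomal subunits, were listed for 8 DDX genes. Their 17 records were 11 higher and 6 lower (49.7 percent higher over all genes), with 71 control and 102 siTRMT6 reads. These counts were not tested. DDX21, which acts in transcription and processing of ribosomal RNA, was the only DDX gene with reads in all 4 libraries: 5 in control 1, 23 in control 2, 21 in siTRMT6 1 and 6 in siTRMT6 2. The conditions overlapped, and the log2 of summed reads was -0.05. Per 10000 listed reads the libraries were close, from 4.34 in siTRMT6 2 to 5.78 in control 1. Near the end of its coding sequence, control 2 had 13 reads at 68982778 and siTRMT6 1 had 12 at 68982780 of chromosome 10. These bases lie 2 nt apart, yet the authors' deposited table gives the first a log2 of -4.89 and the second 4.40.

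The remaining 4 coding positions of DDX21 each had reads in a different library. SiTRMT6 1 had 9 at 68956291, siTRMT6 2 had 6 at 68960112, control 2 had 10 at 68963441 and control 1 had 5 at 68973627. Its paralog DDX50 had no listed position. Reads that fit both genes could not be set apart.

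DDX27, a helicase of large subunit assembly, had 4 coding positions on chromosome 20, with 0 reads in control 1, 14 in control 2, 11 in siTRMT6 1 and 16 in siTRMT6 2. SiTRMT6 2 had 8 reads at each of 49239314 and 49242114, which lie 151 nt apart in the mRNA. The control reads were at 49243702 and the siTRMT6 1 reads at 49223362. The conditions overlapped, and the log2 was 0.95 in summed reads and 2.23 against the listed totals. DDX27 did not pass the edgeR filter.

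DDX56, another helicase of large subunit assembly, had reads in siTRMT6 libraries only. SiTRMT6 1 had 13 reads at 44569155 and siTRMT6 2 had 7 at 44569146 of chromosome 7, 9 nt apart in coding sequence, and both controls were listed at 0. It was the only helicase gene in which neighbouring positions within 200 nt on the chromosome came from libraries of the same condition. Over all genes, 5.72 percent had both siTRMT6 libraries above both controls in reads as deposited. DDX56 did not pass the edgeR filter, and in DESeq2 its adjusted p was 0.812. It is a minus-strand gene.

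The other nucleolar helicases had 1 coding position each. DDX51 had 17 reads in control 1 at 132144258 of chromosome 12, the position whose sequence is shown above. DDX24 had 12 reads in control 2 at 94060532 of chromosome 14. Both act in ribosome assembly, and neither had siTRMT6 reads listed. In the other direction, DDX49 had 11 reads in siTRMT6 1 at 18928227 of chromosome 19, and DDX55 had 9 in siTRMT6 1 at 123607496 of chromosome 12. DDX54 had 8 reads in siTRMT6 2 at 113159104 of chromosome 12, a base also listed for CCDC42B on the other strand. In each of these 5 genes all reads came from 1 library.

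**Figure D2:**
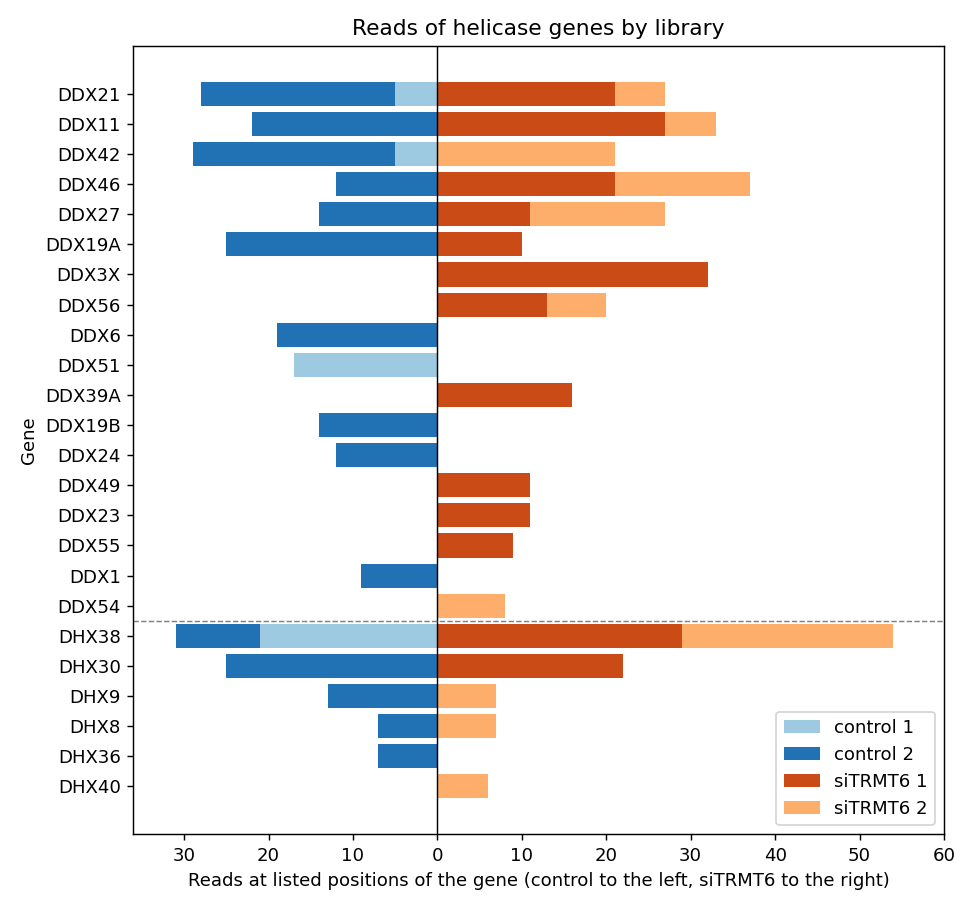
Reads at listed positions of each helicase gene (x axis, reads), with control libraries drawn to the left of 0 and siTRMT6 libraries to the right, stacked by library. Genes are on the y axis, DDX above the dashed line and DHX below it. DHX38 has the longest bars (31 control and 54 siTRMT6 reads), and 14 of the 24 genes have a bar on 1 side only.

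Helicases of mRNA export, translation and decay had 12 records of 5 genes, with 58 control and 58 siTRMT6 reads and none in control 1 or siTRMT6 2. The control sum counts the 5 control 2 reads at 70314941 for both DDX19A and DDX19B. The sums are therefore equal only by record, and distinct control reads were fewer. DDX3X, which helps ribosomes start on structured mRNA leaders, had 32 reads in siTRMT6 1 and was listed at 0 in the other 3 libraries. Its reads fell at 41334267 (6), 41341592 (12) and 41347731 (14) of chromosome X, in 2 coding positions and 1 in the 3′ UTR. DDX6, which represses translation and promotes decapping in P-bodies, had the opposite pattern, with 19 reads in control 2 only. They lay at 118748394 (11 reads, 3′ UTR) and 118786344 (8 reads, 5′ UTR) of chromosome 11. Since siTRMT6 2 was at 0 for DDX3X and control 1 was at 0 for DDX6, the conditions overlapped in both genes.

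DDX19A and DDX19B are near-identical neighbours on chromosome 16 that release export factors from mRNA at the nuclear pore. DDX19A had 25 reads in control 2 and 10 in siTRMT6 1, a log2 of -1.32. In its 3′ UTR, control 2 had 11 reads at 70372355 and siTRMT6 1 had 10 at 70372079. DDX19B had 14 reads in control 2, 9 of them at 70333677 in its 3′ UTR. The 5 reads of control 2 at 70314941 were counted for both genes. That base and the DDX19A base at 70366109, with 9 reads, were also listed for the transcript RP11-529K1.3. How the authors split reads between these copies is not stated, so each gene's values are uncertain. DDX39A, a helicase of mRNA export, had 16 reads in siTRMT6 1 at 14409144 of chromosome 19, and its paralog DDX39B had no listed position.

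The DHX genes outside the spliceosome included the most regular pattern of the set. DHX30, which acts in mitochondrial ribosome assembly and in cytoplasmic translation, had 6 coding positions on chromosome 3 that formed 3 pairs. In the first pair control 2 had 7 reads at 47827421 and siTRMT6 1 had 6 at 47827434. In the second pair control 2 had 7 at 47829065 and siTRMT6 1 had 6 at 47829078. In the third, siTRMT6 1 had 10 reads at 47841111 and control 2 had 11 at 47841118. The pairs are 13, 13 and 7 nt wide, and each sets 1 library against another with nearly equal reads. In all, DHX30 had 25 reads in control 2, 22 in siTRMT6 1 and none listed in the other libraries, a log2 of -0.18 (edgeR adjusted p = 0.9997).

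DHX9, a nuclear helicase of double-stranded RNA, had 8 reads at 182860157 and 5 at 182866473 in control 2, and 7 reads at 182887416 of chromosome 1 in siTRMT6 2. The control positions lie 57 nt apart in the mRNA. The log2 of summed reads was -0.89, but 0.84 against the listed totals. DHX36, which unwinds G-quadruplexes, had 7 reads in control 2 at 154324451 of chromosome 3, in the 5′ UTR stretch shown above. DHX40 had 6 reads in siTRMT6 2 at 59607138 of chromosome 17.

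2 further DDX genes have other roles. DDX11 is a DNA helicase of sister chromatid cohesion that carries a DDX name. It had 0 reads in control 1, 22 in control 2, 27 in siTRMT6 1 and 6 in siTRMT6 2, over 5 positions on chromosome 12, and the conditions overlapped. The log2 was 0.58 in summed reads and 1.20 against the listed totals. At 31089090 it had the only helicase position with reads in 2 libraries, 11 in siTRMT6 1 and 6 in siTRMT6 2, and 12 reads of control 2 lay at 31085090, 129 nt away along the mRNA. At the end of the coding sequence siTRMT6 1 had 9 reads at 31103817 and control 2 had 10 at 31103891. A further 7 reads of siTRMT6 1 lay at 31078472. DDX11 has a near-identical pseudogene, DDX12P, so its reads are uncertain. DDX1, a helicase of the tRNA ligase complex, lies near MYCN on chromosome 2 and is often amplified with it in neuroblastoma. It had 9 reads in control 2 at 15628696 and no others, while MYCN had 5 listed positions.

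Taking all helicases, 10 of the 24 genes had reads in both conditions (41.7%, against 39.1% of all genes), 6 in controls only and 8 in siTRMT6 cells only. By family, 6 of 18 DDX and 4 of 6 DHX genes had both. The median log2 of summed reads in the 10 genes was -0.03, against -0.07 over all genes with both. With each library set against its listed total, the medians were 0.66 and 0.087. Reads in 3 or 4 libraries were found in 6 genes, DDX11, DDX21, DDX27, DDX42, DDX46 and DHX38 (6 of 24, against 15.7% of all genes). Both siTRMT6 libraries were above both controls in 3 genes in reads as deposited, DDX46, DDX56 and DHX38 (5.72 percent of all genes), and in DDX46 and DDX56 per 10000 listed reads (8.23 percent). In no helicase gene were both below, against 3.8 percent and 4.65 percent of all genes.

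**Figure D3:**
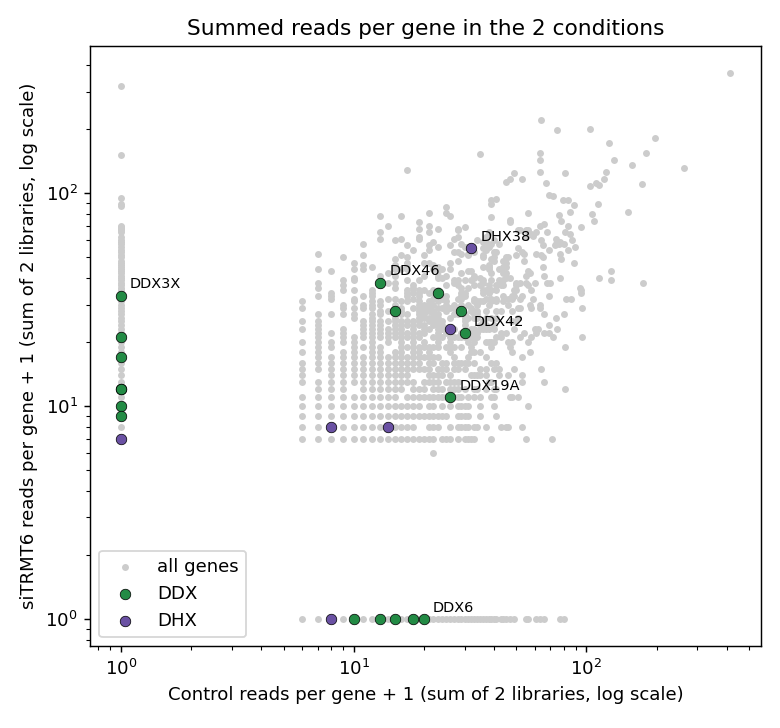
Summed control reads plus 1 (x axis) and summed siTRMT6 reads plus 1 (y axis) per gene, both on log scales. Grey points are all genes, green points DDX and purple points DHX. Points on the left or lower edge have 0 reads in 1 condition, as 14 of the 24 helicase genes do, and the others lie within the cloud of all genes.

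Neighbouring bases of the same helicase mRNA were usually listed for different libraries. Joining positions of a gene within 200 nt on the chromosome gave 54 helicase regions, 10 of them with more than 1 position. Each of these 10 held 2 positions from different libraries, and in 9 the libraries were of opposite conditions (16.7% of the regions, against 17.3% over all genes). The 9 regions lay in DDX11, DDX21, DDX42, DDX46, DHX30 (3) and DHX38 (2). That was 4 of 40 DDX regions and 5 of 14 DHX regions. The 5 DHX regions come from only 2 genes, so the difference between families was not tested. The positions of a pair were 2 to 74 nt apart. Without control 2, 1 of the 9 regions was left, and without siTRMT6 1, 3 were left.

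Summed within a region, the conditions were closer in reads as deposited than the single positions. In the 9 regions the log2 of siTRMT6 over control reads ran from -0.78 (DDX42, 14 against 24 reads) to -0.12 (DDX21, 12 against 13), with a median of -0.22. Each of the 9 had fewer siTRMT6 than control reads as deposited, and none differed by 2-fold or more. Over all genes the median of such regions was -0.15, with 834 of 1470 below 0 and 140 at 2-fold or more. The direction depended on the scale: with each library set against its listed total, 6 of the 9 regions were above 0 and 3 below, with a median of 0.022. The 3 below 0 were DHX38 in coding sequence (-1.26) and the first 2 pairs of DHX30, and DDX46 was the highest (1.15). DHX38 and DDX46 then differed by more than 2-fold, while over all genes the median was 0.063, with 642 below 0, 828 above and 483 at 2-fold or more. Regions enter this count only when both conditions had a listed position, which itself favours ratios near 1.

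Distances on the chromosome miss neighbours that an intron separates. Joined within 200 nt along a shared transcript, a choice made after seeing the data, the helicase records formed 45 regions, of which 9 held both conditions. In DHX38 this region had 21 control and 34 siTRMT6 reads (log2 0.70) in place of 21 and 14. In DDX46 it had 12 and 28 (log2 1.22) in place of 12 and 8, and in DDX11 a new region had 12 and 17 (log2 0.50). In reads as deposited, the direction in DHX38 and DDX46 thus turned with the way distance was measured. Among these 9 regions, 6 were below 0 and 3 above as deposited, and 2 below and 7 above against the listed totals.

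**Figure D4:**
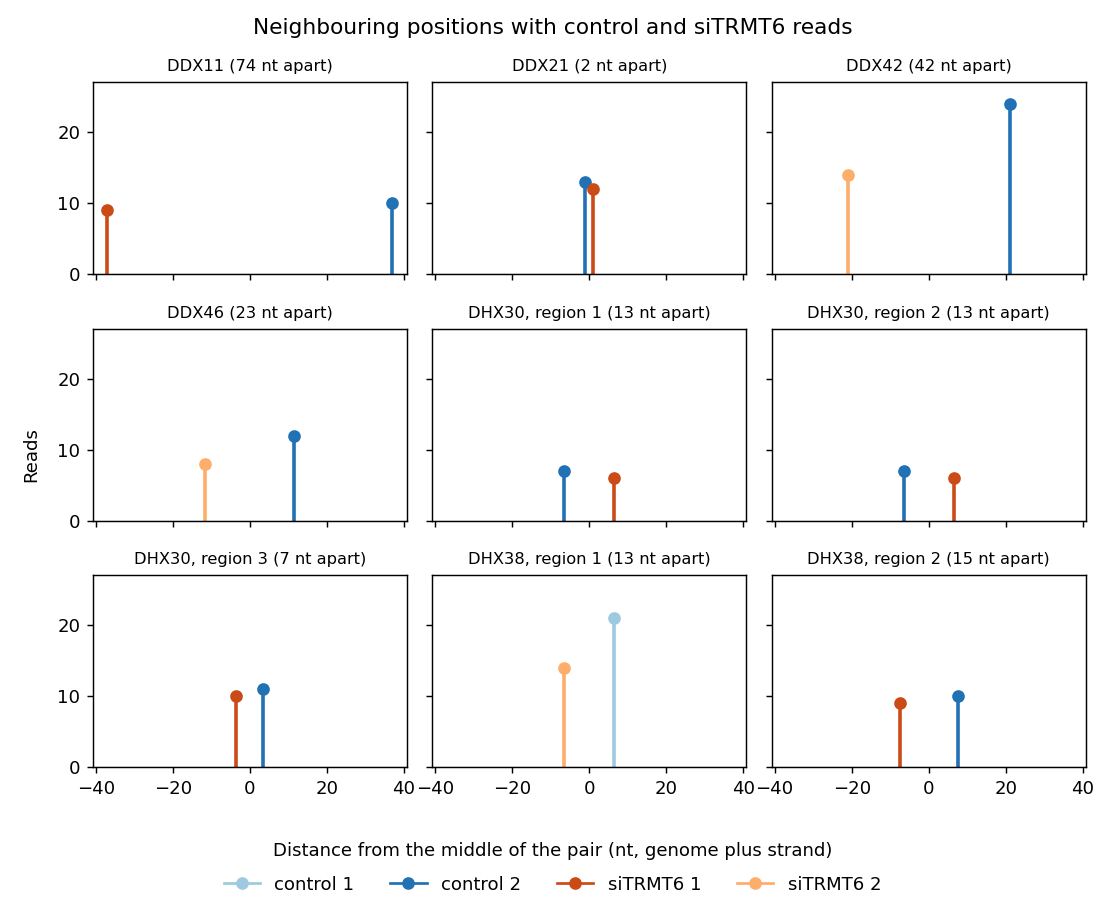
The 9 regions in which control and siTRMT6 positions lie within 200 nt on the chromosome, with reads (y axis) at each position and the distance in nt from the middle of the pair (x axis). Colours mark the library. In DHX30 and DDX21 the paired stems differ by 1 read, and in DDX42 by 10.

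Other genes of the helicase pathways were taken from 4 lists. Of 9 DEAD or DEAH box proteins under other names, 2 had a position, the translation initiation helicases EIF4A1 and EIF4A2. EIF4A1 had 0, 48, 20 and 12 reads in control 1, control 2, siTRMT6 1 and siTRMT6 2, and the conditions overlapped. EIF4A2 had 54 and 12 reads in the siTRMT6 libraries and was listed at 0 in both controls. Both siTRMT6 libraries were above both controls in 5.72 percent of all genes as deposited and in 8.23 percent per 10000 listed reads. The list of these proteins had 6 records higher and 2 lower. Over all genes 49.7 percent of records were higher. Records of 1 gene are not replicates, so these counts were not tested. Among other RNA helicases, UPF1 of nonsense-mediated decay had 0, 32, 7 and 8 reads in the same order, and the conditions overlapped. SKIV2L2 of the nuclear exosome had 5 reads, all in control 2. HELZ, a minus-strand gene, had 7 reads, all in siTRMT6 1.

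Partners of the helicases formed the other lists. Of 22 activators or partners of DEAH helicases, 17 had a position, with 28 records higher and 18 lower. Of these 46 records 20 lay in minus-strand genes, as did 5 of the 53 records of the next list, and they carry the same limit on the listed base. The G-patch splicing factor SON had 46 reads in control 2 and 74 in siTRMT6 1. It was listed at 0 in the other libraries, so the conditions overlapped. The G-patch protein gene RBM17 had reads in all 4 libraries, 8, 8, 9 and 6. PRPF8, the core of the spliceosome and a minus-strand gene, had 27 and 6 reads in the siTRMT6 libraries and none listed in controls. Of 22 partners of DEAD helicases, 14 had a position, with 35 records higher and 18 lower. Over all genes 49.7 percent of records were higher. SART1 alone held 7 of these 35 higher records and EIF4H 6. Records of 1 gene are not replicates, so the counts of both lists were not tested. EIF4H, a cofactor of EIF4A, had 51 and 35 reads in the siTRMT6 libraries and none listed in controls, and SART1, a tri-snRNP protein, had 128 siTRMT6 and 16 control reads. CASC3, a partner of EIF4A3 in the exon junction complex, had 15 control and 43 siTRMT6 reads, while the EIF4A scaffold EIF4G1 had 87 and 46. In PRPF8, GPANK1, EIF4H, LSM14B, SART1 and CASC3 both siTRMT6 libraries were above both controls. Over all genes this held for 5.72 percent as deposited and 8.23 percent per 10000 listed reads. In EIF4G1 both were below as deposited (3.8 percent of all genes), but per 10000 listed reads the conditions overlapped. RBM6 (25 control and 7 siTRMT6 reads), PDCD4 (15 and 8) and NUP214 (13 and 7) had fewer siTRMT6 reads, and the conditions overlapped. edgeR called none of these genes, since it made no call among the 975 gene sums it tested, and those under its filter were not tested.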

How the data were processed

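One deposited table held all values, in 25539 lines for 9962 positions and 12150 transcripts. FastQC 0.11.3, STAR and the build hg38 were used, per the submitters' processing notes. For the caller, the counting rule, the strand setting and the test, nothing is stated in the sources. The 4 deposited columns of counts (2 control, 2 siTRMT6) stand beside the authors' log2 fold changes and their p-values, raw and adjusted, as the headers name them. The authors' log2 values equal the log2 of summed siTRMT6 over summed control counts, with a sum of 0 set to 0.5, less 0.18. The largest deposited p-value was 0.0478.

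Records were made per position and gene with pandas 2.3.3. Counts were tested over the whole table with edgeR 4.0.16 in R 4.3.3 (TMM, filterByExpr, quasi-likelihood test, Benjamini-Hochberg adjustment at 0.05). DESeq2 1.42.0 was an alternative. The edgeR step for gene sums was run on simulated counts with a far smaller dispersion than that of these data (2.59). That run does not show how the test performs at the spread found here. Reads of positions were summed per gene, and joined within 200 nt per region. Sequences came from RefSeq (GRCh38.p14), in which all 24 helicase genes were found. Reads without molecular identifiers are not independent molecules.

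Named were the 12 DDX genes with most reads, all 6 DHX genes (the rule allowed 12), genes in 3 or 4 libraries or with both conditions within 200 nt, calls, the 3 gene sums of lowest p, and DDX1. The rest of the helicase genes were added afterwards. Members and lists were chosen with earlier results of these data known, and the grouping by role and the reading of bases were added after seeing the values. A part of the list of other RNA helicases is not reported here.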

Additional observations from a re-analysis of the deposited data

How the results depend on the processing

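No helicase gene sum was called in DESeq2 (all genes, or those that passed the edgeR filter) or in edgeR with equal library sizes, column totals without TMM factors, no filter, a replicate block or any library left out, with 5 to 24 helicase genes tested. Over single positions no call was possible with equal library sizes, without TMM factors, with the block or in DESeq2 after the filter, because 0 helicase positions were tested. Without the filter and in DESeq2 on all positions 63 were tested, and 2 to 5 when a library was left out, with 0 called. Over all positions, equal library sizes changed the calls from 22 (13 higher, 9 lower) to 29 (10 higher, 19 lower). With the replicate number as a block, edgeR called 0 of 34 positions, none of them a helicase position, and 0 of 975 gene sums, 6 of them helicases. Deviations of same-numbered libraries from their condition's mean had a correlation of -0.099 over the gene sums tested. With so few reads per gene, this value cannot decide whether the numbers pair the libraries. Each fit with a library left out had only 1 library in a condition, so its p-values are not given.

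The count of helicase records with more siTRMT6 than control reads was 26 of 45 in DDX and 10 of 19 in DHX. With 10 or more reads it was 12 of 23 and 4 of 7, and at an adjusted p under 0.01 of the authors' deposited table it was 16 of 31 and 5 of 9, since fewer records enter. Leaving out each library gave 10 to 26 in DDX and 5 to 10 in DHX, among the records that still had reads. Without siTRMT6 1 it was 10 of 29 in DDX and 5 of 14 in DHX, and without siTRMT6 2, 17 of 36 and 5 of 14. Without control 1 it was 26 of 42 and 10 of 18, and without control 2, 26 of 29 and 10 of 11. The balance of directions thus depended on which library was left out. In genes of the plus strand only it was 21 of 36 and 10 of 18. Helicase regions with both conditions numbered 9, and 1 to 8 when a library was left out: 1 without control 2, 3 without siTRMT6 1, 6 without siTRMT6 2 and 8 without control 1. They numbered 9 within 100 nt, 10 within 500 nt and 9 on the plus strand.

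Of the 10 genes with both conditions, 3 changed direction when each library was set against its listed total: DDX42 (0.47 in place of -0.47), DHX9 (0.84 in place of -0.89) and DHX38 (-0.068 in place of 0.80). Another 4 rose by over 0.5: DDX11 (1.20 in place of 0.58), DDX46 (2.68 in place of 1.62), DDX27 (2.23 in place of 0.95) and DHX8 (1.74 in place of 0), and 3 moved less. The median of the 10 went from -0.03 to 0.66, and that of the 9 regions from -0.22 to 0.022. The cause was not tested beyond this change of scale. Values of 5 to 24 reads limit all single positions.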
